A study of Rattus norvegicus with 6 samples.

Results

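The genes described are 9 that encode the neuronal cytoskeleton, and all 9 of the 9 symbols were found among the 22601 genes of the count table. They were chosen by name: the neurofilament subunits Nefl, Nefm and Nefh, their partner Ina, the microtubule-associated proteins Map2, Map1a and Map1b, the tubulin-binding protein Stmn2 and the beta-tubulin isotype Tubb4a. Libraries came from the ventral hippocampus of 3 aged (22 months) and 3 adult (4 months) males of the Sprague Dawley strain, a stock of outbred laboratory rats, with 1 library per animal. The labels name no transgene and no drug for either age. The animals were drawn at random from 10 per age that had first been run in a Morris water maze, a pool test of spatial memory, so all of them had that training. The comparison asks how levels of these transcripts in aged rats differ from those in adult rats.

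Neurofilaments are the intermediate filaments of neurons. The light, medium and heavy chains (Nefl, Nefm and Nefh) assemble together with alpha-internexin (Ina) and fill the shaft of the axon, where they help to set its diameter. Microtubules are built from alpha- and beta-tubulin and run along axons and dendrites as tracks for transport. Microtubule-associated proteins bind and stabilise them, with MAP2 in dendrites and the cell body, MAP1B prominent in growing axons and MAP1A in mature neurons.

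Library totals lay between 12476758 and 15400405 counts in aged rats and between 14637811 and 15689921 counts in adult rats, and the 9 genes took 0.610% to 0.741% of the counts of a library. The tissue label was checked with hippocampal genes. Prox1, a transcription factor of dentate granule cells, averaged 48.9 CPM (counts scaled to a common library size, by TMM) in aged and 67.2 CPM in adult rats, and Neurod6, a factor of pyramidal neurons, averaged 141.7 and 156.8 CPM in aged and adult rats. Among the 10 hippocampal genes looked up, Spink8 was too low to be tested, and Zbtb20 averaged only 1.35 and 2.28 CPM in aged and adult rats. Of the 9 tested, 8 were lower and 1 higher in aged rats (median log2 fold change -0.15), with 0 called by edgeR. Some varied within an age: Wfs1 had 35.0, 223.7 and 232.9 CPM in adult replicates 1 to 3. Prox1 had 50.1, 51.3 and 100.1 CPM there, while Hs3st4 varied less (81.4, 72.6 and 92.4 CPM). How evenly the region was sampled was not tested. Adult replicate 1 stood apart through choroid plexus RNA: 8 marker genes of that epithelium summed to 2154 CPM of the library total there, against 10.5 to 74.2 CPM in the other 5 libraries. Most of that sum was Ttr (2076 CPM in adult replicate 1). Folr1, Clic6, Aqp1 and Slc4a5 had 15.6, 14.1, 16.9 and 7.85 CPM there, their highest values, and Kl, Otx2 and Kcnj13 were too low to be tested. Adult replicate 3 stood apart in skeletal muscle transcripts, for which the sum of 10 marker genes was 171.6, 64.5 and 105.5 CPM in aged replicates 1 to 3, and 171.9, 169.5 and 503.1 CPM in adult replicates 1 to 3. The liver gene Alb stood at 16.0 and 16.9 CPM in aged and adult replicate 1 but at 162 CPM or more elsewhere, so values without replicate 1 of both ages are also reported.

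None of the 9 genes was called different between aged and adult rats. With edgeR's quasi-likelihood test and Benjamini-Hochberg adjustment over the 14588 genes tested, 0 of 9 passed an adjusted p of 0.05, and their adjusted p was 1 in each case. The background was the same, since 0 genes in all (0%) passed. The values of 6 genes were higher in aged rats and those of 3 lower, with a median log2 fold change of 0.081 over the 9 and -0.0022 over all genes tested. That direction rested on aged replicate 1: without it 2 genes (Map2 and Map1a) were higher and 7 lower, with a median of -0.073, and leaving out replicate 1 of both ages gave -0.079. At an unadjusted p under 0.05 there were 2 of the 9, Map1a higher and Tubb4a lower in aged rats, beside 503 (3.45%) of all genes, of which 172 (1.18%) were higher and 331 (2.27%) lower. The same 2 were the members whose aged and adult libraries did not overlap, which held for 1103 (7.56%) of all genes. DESeq2 called 31 genes (0.213%), 0 of them among the 9, with adjusted p-values of 0.804 for Map1a and 0.460 for Tubb4a. An exact two-sided permutation test of 3 rats against 3 cannot give a p below 0.1.

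**Figure D1:**
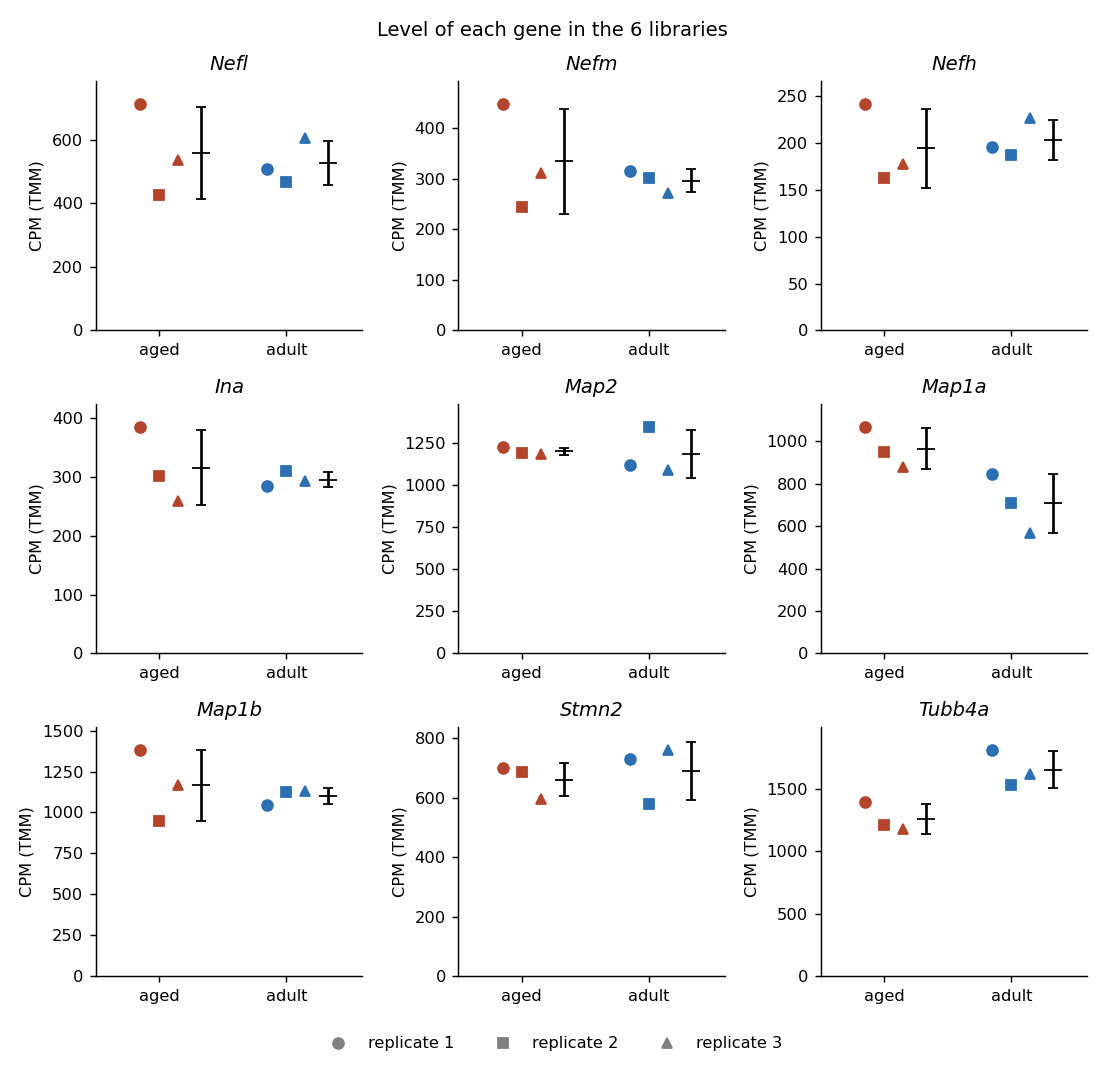
Level of each of the 9 genes (vertical axis, CPM scaled by TMM, from 0) in 3 aged (left, red) and 3 adult (right, blue) libraries. Symbols mark the replicate and the black bar is the mean with its SD. Aged and adult points are separate for Map1a and Tubb4a and overlap for the other genes.

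The neurofilament subunits had similar averages at both ages and a wide spread among aged rats. Nefl, the light chain and core of the filament, had 714, 426 and 535 CPM in aged replicates 1 to 3, and 507, 469 and 605 CPM in adult replicates 1 to 3. Its highest and its lowest library were both from aged rats, so the groups overlapped fully. Nefl averaged 558 ± 145.5 CPM in aged and 527 ± 70.3 CPM in adult rats (SD, n = 3 each). Its log2 fold change was 0.083 ± 0.20 (SE), and the 95% interval ran from 0.767-fold to 1.46-fold.

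Nefm, the medium chain, had 448, 244 and 311 CPM in the aged rats, and 316, 301 and 271 CPM in the adult rats. Aged replicate 1 again was highest and aged replicate 2 lowest, with all adult values between them. The heavy chain gene Nefh, whose protein carries a long tail with many phosphorylation sites, had 242, 163 and 178 CPM in aged rats, and 195, 187 and 227 CPM in adult rats. The same pair of aged libraries held its extremes. Log2 fold changes were 0.18 ± 0.21 (SE) for Nefm and -0.064 ± 0.17 for Nefh, and both intervals included 0.

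Ina encodes alpha-internexin, which joins the neurofilament chains in mature neurons and appears before them in developing ones. It had 386, 302 and 259.7 CPM in aged replicates 1 to 3, and 285, 310.2 and 293 CPM in adult replicates 1 to 3. Adult rats lay close together for this gene (coefficient of variation 4.40%), while aged rats varied more (20.3%) and included the highest and the lowest library. The log2 fold change was 0.095 ± 0.16 (SE), with an interval from 0.827-fold to 1.38-fold. In the GRCr8 annotation the span of Ina overlaps that of Nt5c2. Reads from a shared stretch cannot be told apart unless strand was used in counting. Whether exons overlap, and whether the spans do in the build of the counts, was not checked. Nt5c2 averaged 102.5 CPM in aged and 99.7 CPM in adult rats.

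Aged replicates 1 and 2 marked the outer ends of this spread. Aged replicate 1 was the highest library of all for 6 of the 9 genes, namely Nefl, Nefm, Nefh, Ina, Map1a and Map1b. Aged replicate 2 was the lowest library for 4 genes, Nefl, Nefm, Nefh and Map1b. The share of all tested genes with the same extremes was not counted, so these extremes may not be particular to the 9 genes. The ratio of the highest to the lowest aged rat was 1.68 for Nefl, 1.83 for Nefm, 1.48 for Nefh and 1.49 for Ina, and among adult rats it was 1.29, 1.16, 1.22 and 1.09 for the same genes in that order. Whether aged rats vary more than adult rats was not tested. Among genes of at least 100 CPM on average, 85.8% had a smaller SD of log2 CPM within the ages than Nefl, 88.6% than Nefm, 72.7% than Nefh and 63.9% than Ina, while for Map2 the share was 22.3%. Each of the 9 genes had between 2027 and 26542 counts in every library. The summed level of 14 neuron markers, which include the synaptic genes Snap25 and Syt1, was 13650, 11500 and 11290 CPM of the library total in aged replicates 1 to 3, and 12640, 11410 and 13730 in adult replicates 1 to 3. Aged replicate 1 was the highest aged library there too, although adult replicate 3 was just as high in the sum. The marker Nrgn alone had 4045 CPM in adult replicate 3 and 2712 CPM in aged replicate 1. By gene, aged replicate 1 was highest for Rbfox3, Snap25, Syt1, Slc17a7, Gad1, Gad2 and Elavl2. Adult replicate 3 was highest for Thy1 and Nrgn, and other libraries for Syp, Eno2, Camk2a, Elavl3 and Elavl4. The part of neuron content in the spread was not tested. In bulk tissue, fewer cells of a type and less RNA per cell cannot be told apart.

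**Figure D2:**
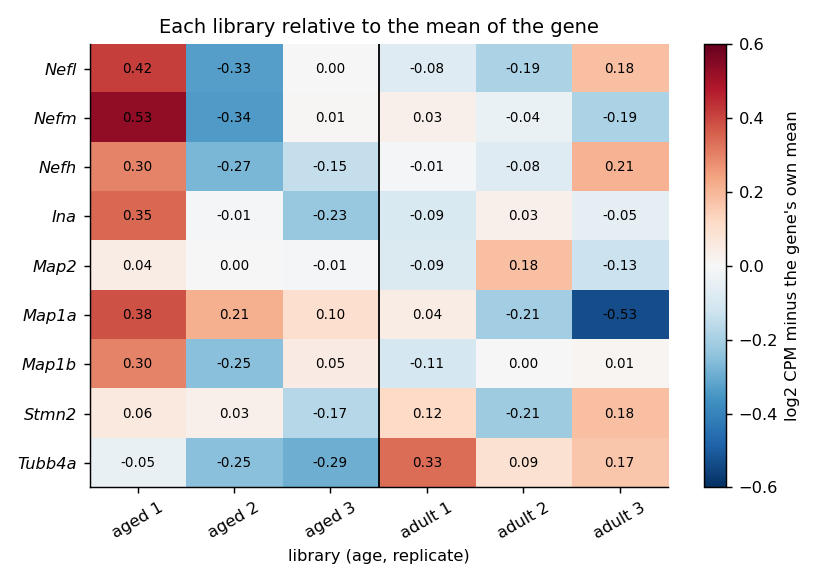
Log2 CPM of the 9 genes (rows) in the 3 aged (left of the line) and 3 adult libraries (columns), each minus the mean of the gene over the 6 libraries. Aged replicate 1 stands highest in Nefl (0.42), Nefm (0.53), Nefh (0.30), Ina (0.35), Map1a (0.38) and Map1b (0.30), and aged replicate 2 lowest in Nefl (-0.33), Nefm (-0.34), Nefh (-0.27) and Map1b (-0.25).

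The balance between neurofilament subunits was compared within each library on FPKM, counts scaled by gene length and library total, which allows different genes to be set side by side. Nefm stood at 0.416, 0.381 and 0.386 of the Nefl level in aged rats, and at 0.412, 0.425 and 0.297 in adult rats. The low value was that of adult replicate 3, and the other 5 libraries lay close together. Nefh stood at 0.178, 0.202 and 0.175 of Nefl in aged rats, and at 0.203, 0.210 and 0.198 in adult rats, so only aged replicate 2 reached the adult range. Ina stood at 0.330, 0.433 and 0.296 of Nefl in aged rats, and at 0.342, 0.403 and 0.295 in adult rats, with nearly the same range at both ages. These ratios are descriptions with no test. Nefl and Nefm spread 1.68-fold and 1.83-fold over the aged libraries, whereas the ratio between them ranged only between 0.381 and 0.416 there. The adult libraries did not show this: Nefl and Nefm spread 1.29-fold and 1.16-fold, and their ratio ranged more widely, between 0.297 and 0.425.

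**Figure D3:**
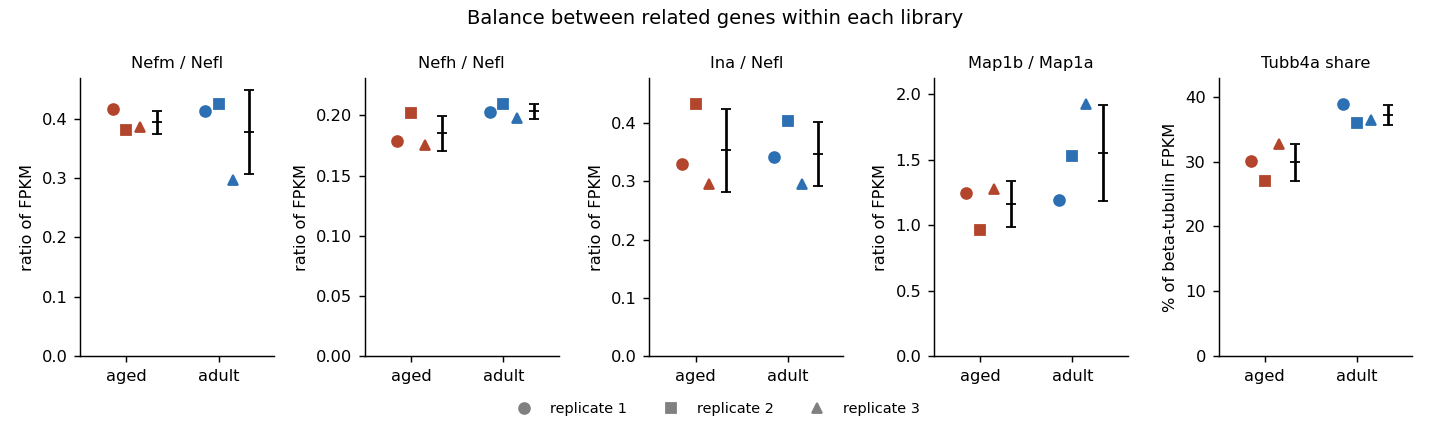
Ratio of FPKM between related genes (first 4 panels) and the percentage of summed beta-tubulin FPKM that is Tubb4a (last panel), each on an axis from 0, in 3 aged (left, red) and 3 adult (right, blue) libraries, with mean and SD in black. Aged and adult points overlap in each ratio and are separate for the Tubb4a share.

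Tubb4a, a beta-tubulin isotype of brain that neurons and oligodendrocytes express, was the most abundant of the 9 genes and ranked 65 of 14588 tested genes by mean FPKM. It had 1394.5, 1208 and 1176 CPM in aged replicates 1 to 3, and 1813, 1532 and 1615 CPM in adult replicates 1 to 3. Every aged library was below every adult library, a pattern seen in that direction in 646 (4.43%) of all genes. Tubb4a averaged 1259 ± 118 CPM in aged and 1653 ± 144 CPM in adult rats (SD, n = 3 each). Its log2 fold change was -0.39 ± 0.14 (SE), or 0.762-fold with a 95% interval from 0.614 to 0.946, with an adjusted p of 1 in edgeR (unadjusted p 0.0198). The unadjusted p no longer stood under 0.05 without adult replicate 1, where the log2 fold change was -0.31, without aged replicate 2 (-0.36), without aged replicate 3 (-0.35), without replicate 1 of both ages (-0.38) or with unfiltered log2(FPKM + 1) values (-0.38).

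The other beta-tubulin genes overlapped between the ages when summed. Over 8 beta-tubulin genes, Tubb4a made up 30.0%, 27.0% and 32.7% of the summed FPKM in aged rats, and 38.9%, 36.0% and 36.5% in adult rats. The groups did not overlap in this share, which was worked out after the Tubb4a values had been seen. The remaining 7 genes together stood at 1530.3, 1568 and 1207 FPKM in aged replicates 1 to 3, and at 1368, 1320 and 1314 FPKM in adult replicates 1 to 3, with adult values inside the aged range. Tubb3, the neuron-specific isotype, averaged 595 CPM in aged and 529 CPM in adult rats, and Tubb5, a broadly expressed isotype, averaged 875 and 834 CPM in aged and adult rats. Both are named after their values were seen. Beta-tubulin genes are close in sequence, so how reads were shared among them in the authors' counting is uncertain.

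Myelin transcripts, made by oligodendrocytes, also had lower values in aged rats. The sum of 11 oligodendrocyte and myelin markers, as CPM of the library total, was 7030, 7495 and 9986 in aged replicates 1 to 3, and 18270, 12500 and 11710 in adult replicates 1 to 3. All 11 had lower values in aged rats, 6 with no overlap between the groups, which held in that direction for 646 (4.43%) of all genes. Of the 11, 0 were called by edgeR, while DESeq2 called Mbp, Cnp and Ugt8 among others. Adult replicate 1 had the highest level of both Tubb4a and the myelin sum. Among aged rats the orders ran the other way, since replicate 1 had the highest Tubb4a and the lowest myelin sum. The part of oligodendrocyte RNA in the Tubb4a difference was not tested.

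Map1a encodes a microtubule-associated protein of mature neurons that is processed into a heavy and a light chain. It had 1070.1, 950.4 and 879.9 CPM in aged replicates 1 to 3, and 846, 710.4 and 568 CPM in adult replicates 1 to 3. Every aged library was above every adult library, as in 457 (3.13%) of all genes, and the closest pair was aged replicate 3 and adult replicate 1. Map1a averaged 967 ± 96.2 CPM in aged and 708 ± 139 CPM in adult rats (SD, n = 3 each). The log2 fold change was 0.45 ± 0.17 (SE), or 1.365-fold with a 95% interval from 1.04 to 1.79, with an adjusted p of 1 in edgeR (unadjusted p 0.0300). Adult replicate 3 was the lowest library: without it the log2 fold change was 0.32 and the unadjusted p no longer stood under 0.05, which also held without adult replicate 2 (0.45) or aged replicate 1 (0.39). Adult replicate 3 is also the library with the high skeletal muscle sum, and the part of such admixture in the Map1a difference was not tested. The span of Map1a overlaps that of Tp53bp1 in the GRCr8 annotation, and Tp53bp1 averaged 122.5 CPM in aged and 110.3 CPM in adult rats. The limits on strand, exons and build given for Ina apply to this pair too.

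Map1b, the relative of Map1a that is prominent in growing axons, overlapped between the ages. It had 1384, 945 and 1165 CPM in aged rats, and 1045, 1126 and 1133 CPM in adult rats. The adult libraries lay within a ratio of 1.08 of each other and inside the aged range, which held a ratio of 1.46. Its log2 fold change was 0.081 ± 0.16 (SE), with an interval from 0.819-fold to 1.365-fold. On FPKM, Map1b stood at 1.25, 0.961 and 1.28 times Map1a in aged rats, and at 1.19, 1.53 and 1.93 times Map1a in adult rats. Adult replicates 2 and 3 were above all aged libraries in this ratio and adult replicate 1 was not.

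Map2 encodes the MAP of dendrites and is widely used as a stain for them. It had 1224, 1187 and 1180.3 CPM in aged rats, and 1117, 1344 and 1084 CPM in adult rats. The SD was 23.4 CPM among aged and 141.6 CPM among adult rats, so here the wider spread was among adult rats. The log2 fold change was 0.018 ± 0.13 (SE), the smallest in size of the 9, with an interval from 0.820-fold to 1.25-fold.

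Stmn2, whose protein stathmin-2 binds tubulin dimers and is enriched in growth cones, had 700.0, 685 and 596 CPM in aged replicates 1 to 3, and 729, 579 and 761 CPM in adult replicates 1 to 3. Adult replicates 2 and 3 held its lowest and highest values and enclosed all aged libraries. The log2 fold change was -0.062 ± 0.15 (SE), with an interval from 0.756-fold to 1.21-fold. For the 7 genes other than Map1a and Tubb4a, the intervals therefore run no lower than 0.728-fold (Nefh) and no higher than 1.59-fold (Nefm).

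**Figure D4:**
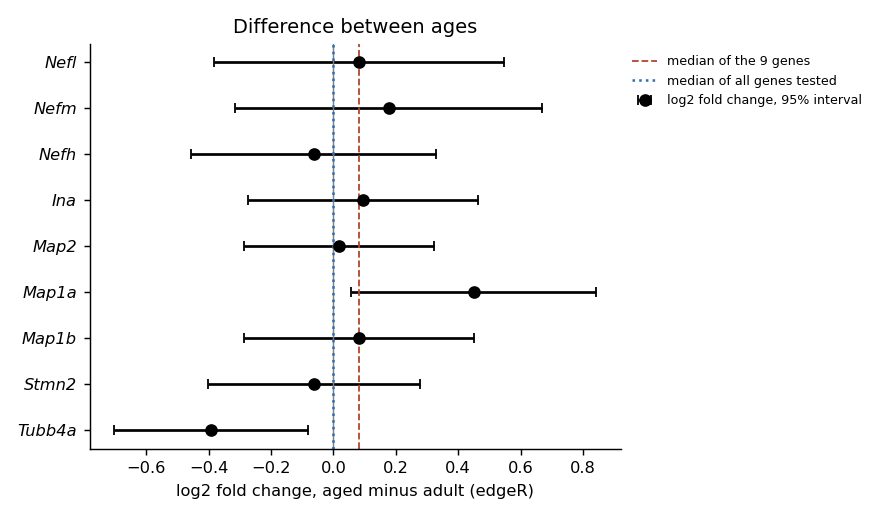
Log2 fold change of each of the 9 genes, aged minus adult (horizontal axis, edgeR), with its unadjusted 95% interval derived from the quasi-likelihood test on 6 rats. The intervals of Map1a (0.056 to 0.84) and Tubb4a (-0.70 to -0.080) lie to one side of 0, those of the other 7 include 0, and dashed and dotted lines mark the medians of the 9 genes (0.081) and of all genes tested (-0.0022).

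Per gene length, Tubb4a was the highest of the 9 and Nefh the lowest at both ages. Tubb4a stood at 607 ± 43.0 FPKM in aged and 789 ± 71.3 FPKM in adult rats, and Stmn2 at 359 ± 20.9 and 370.2 ± 47.4 FPKM in aged and adult rats. The lowest Tubb4a library (579 FPKM) was above the highest Stmn2 library (400.5 FPKM). Nefl followed with 276 ± 67.9 FPKM in aged and 258 ± 29.4 FPKM in adult rats, below Stmn2 in each of 6 libraries although their ranges overlapped. Nefm (109.7 and 96.3 FPKM in aged and adult rats), Map1b (98.5 and 92.2), Ina (95.2 and 88.5) and Map2 (92.9 and 90.8) formed a group in which each gene's range overlapped that of its neighbour. Map1a averaged 84.6 FPKM in aged and 61.5 FPKM in adult rats and lay below Map2 in each of 6 libraries, although their ranges overlapped. Nefh was lowest at 50.6 and 52.4 FPKM in aged and adult rats, and lay below Map1a in 5 of 6 libraries.

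Promoters are shown for the 2 genes whose age groups did not overlap and for Map1b, the relative of Map1a. They are the 250 bases before the annotated start of the gene, 5′ to 3′ on the strand of the gene, from RefSeq on GRCr8, which is not the build of the counts. Of the 9 genes, 5 had a promoter in that collection. Capitals mark matches on either strand to 5 motifs. These are TATAAA, known as the TATA box, and GGGCGG, the binding letters of Sp1 family factors. The others are the letters CCAAT and the cyclic AMP response element, TGACGTCA, with its core TGACG, which lies within the whole element.
Tubb4a, chr9:2012282-2012531, minus strand: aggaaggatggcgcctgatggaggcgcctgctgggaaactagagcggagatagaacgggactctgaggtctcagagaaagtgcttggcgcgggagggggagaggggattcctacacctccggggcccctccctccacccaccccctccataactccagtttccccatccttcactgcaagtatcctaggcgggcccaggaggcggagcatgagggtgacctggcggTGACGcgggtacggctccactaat
Map1a, chr3:128722445-128722694, plus strand: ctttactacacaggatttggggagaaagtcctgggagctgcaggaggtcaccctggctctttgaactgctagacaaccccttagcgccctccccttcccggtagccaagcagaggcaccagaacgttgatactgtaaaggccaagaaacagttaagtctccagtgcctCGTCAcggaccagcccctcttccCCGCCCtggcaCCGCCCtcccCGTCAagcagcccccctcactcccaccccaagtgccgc
Map1b, chr2:32644472-32644721, minus strand: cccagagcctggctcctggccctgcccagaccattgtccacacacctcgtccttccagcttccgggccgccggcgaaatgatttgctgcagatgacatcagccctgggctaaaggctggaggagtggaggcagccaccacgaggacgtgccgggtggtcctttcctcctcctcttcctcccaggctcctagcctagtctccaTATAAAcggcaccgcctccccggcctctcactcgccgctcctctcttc
The Tubb4a window held 1 TGACG core, found in 18.2% of 33469 promoters of the same length. The Map1a window held 2 such cores and 2 GGGCGG matches, GGGCGG being found in 30.5% of promoters. The Map1b window held 1 TATA box, found in 12.9% of promoters. None of the 3 held CCAAT (34.0% of promoters) or the whole cyclic AMP response element (1.59%). The GC content was 62.8% for Tubb4a, 60.4% for Map1a and 63.6% for Map1b, against a median of 51.2% over all promoters. These matches describe the letters and are not evidence of binding.

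Genes with the most similar profile over the 6 libraries were found among 10100 genes of at least 10 CPM by the root mean square distance between centred log2 CPM values. For Map1a these included Arl4c (distance 0.053) and Cadps2 (0.082), with log2 fold changes of 0.37 and 0.35. For Tubb4a they were Ube2g1 (0.056), Coa4 (0.060) and Serping1 (0.072), with log2 fold changes of -0.40, -0.42 and -0.47. The search used the same 6 libraries that give the fold change, so similar fold changes follow from it. Whether matches this close are unusual among 10100 genes was not tested. Nefl was closest to Slitrk5 (0.061), Nefm to Trpc4 (0.058), Nefh to Rtn4 (0.049) and Ina to Homer1 (0.050). Map1b was closest to Usp15 (0.015), Map2 to Taf6 (0.024) and Stmn2 to Eid1 (0.028). Among the 9 genes themselves, Nefl and Nefh were the closest pair (0.098), and Map1a and Tubb4a the farthest apart (0.45).

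Genes of related function gave 0 calls by edgeR in each of 8 lists, which covered other cytoskeletal genes and their regulators. Among 14 other tubulin genes tested, 7 were higher and 7 lower in aged rats (median log2 fold change -0.0013), and the most abundant, Tuba1a, averaged 1042 ± 256 CPM in aged and 1074 ± 109 CPM in adult rats. Tubb2b, with the smallest p of that list, averaged 146.1 ± 35.05 and 123.6 ± 3.57 CPM in aged and adult rats. Among 20 other microtubule-associated protein genes, 12 were higher and 8 lower (median 0.037). Map4, a broadly expressed member, averaged 669.9 ± 143 and 701 ± 36.9 CPM in aged and adult rats. Map1s, a smaller relative of Map1a, had 71.0, 76.3 and 68.6 CPM in aged rats and 64.4, 64.2 and 62.0 CPM in adult rats. Its aged libraries all lay above its adult ones, as in 457 (3.13%) of all genes and in 1 of these 20. The log2 fold change was 0.18 ± 0.10 (SE), with an unadjusted p of 0.12 in edgeR.

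Other intermediate filament and linker genes were split evenly, 6 higher and 6 lower of 12 (median 0.0016). Gfap, the filament of astrocytes, averaged 818 ± 209.7 CPM in aged and 842 ± 61.6 CPM in adult rats, and Des, the filament of muscle cells, averaged 7.35 ± 4.16 and 12.8 ± 3.56 CPM in aged and adult rats. The 10 skeletal muscle markers all had lower values in aged rats (median log2 fold change -1.60), 4 of them at an unadjusted p under 0.05 and 0 called by edgeR. Adult replicate 3 had both the highest Des (16.3 CPM) and the highest muscle sum, and the part of muscle RNA in the Des values was not tested. Stathmin and growth cone genes had 9 of 12 members higher (median 0.073), with the collapsin response mediator genes Dpysl2 at 667 and 666 CPM and Dpysl4 at 64.7 and 54.9 CPM in aged and adult rats. Of 14 microtubule tip, minus end and severing genes, 7 were higher and 7 lower (median 0.021). Mapre3, the most abundant of them, which encodes a plus-end binding protein, averaged 445 and 463 CPM in aged and adult rats.

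Of 13 genes of tubulin modifying enzymes, 3 were higher and 10 lower in aged rats (median -0.030). Sirt2, a tubulin deacetylase that is abundant in oligodendrocytes, was the one gene of the 8 lists with an unadjusted p under 0.05. It had 221, 244 and 245 CPM in aged rats, and 349, 296 and 305 CPM in adult rats. The groups did not overlap, as in 646 (4.43%) of all genes in that direction. The log2 fold change was -0.42 ± 0.12 (SE), with an adjusted p of 1 in edgeR. The myelin sum given beside Tubb4a lay in the same direction, and its part was not tested. Ttll7, which adds glutamate chains to tubulin, averaged 352 and 361 CPM in aged and adult rats.

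Among 20 genes of kinases, phosphatases and turnover of neurofilaments and MAPs, 11 were higher and 9 lower (median 0.027). Uchl1, a neuronal ubiquitin hydrolase, averaged 1544.5 ± 253 and 1439 ± 198 CPM, and Mark1, a kinase of microtubule-associated proteins, averaged 62.9 ± 3.56 and 53.9 ± 7.69 CPM in aged and adult rats. Among 13 genes of the axonal membrane skeleton, 9 were higher and 4 lower (median 0.031). Sptan1, which encodes alpha-II spectrin, averaged 1231 ± 85.0 and 1116 ± 95.3 CPM in aged and adult rats. Nfasc, which encodes the adhesion molecule neurofascin of the axon initial segment and node, averaged 239.3 ± 35.1 and 277.9 ± 10.5 CPM in aged and adult rats. Its aged libraries all lay below its adult ones, as in 646 (4.43%) of all genes, with an unadjusted p of 0.156 in edgeR. The myelin sum lay in the same direction, and the part of oligodendrocyte RNA in the Nfasc values was not tested. The 14 neuron markers had 8 higher and 6 lower members (median 0.090), with Nrgn, which encodes the postsynaptic protein neurogranin, at 2460.3 ± 289 and 3198 ± 987 CPM and Gad1, which makes GABA, at 295 ± 30.6 and 248 ± 40.6 CPM in aged and adult rats.

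**Figure D5:**
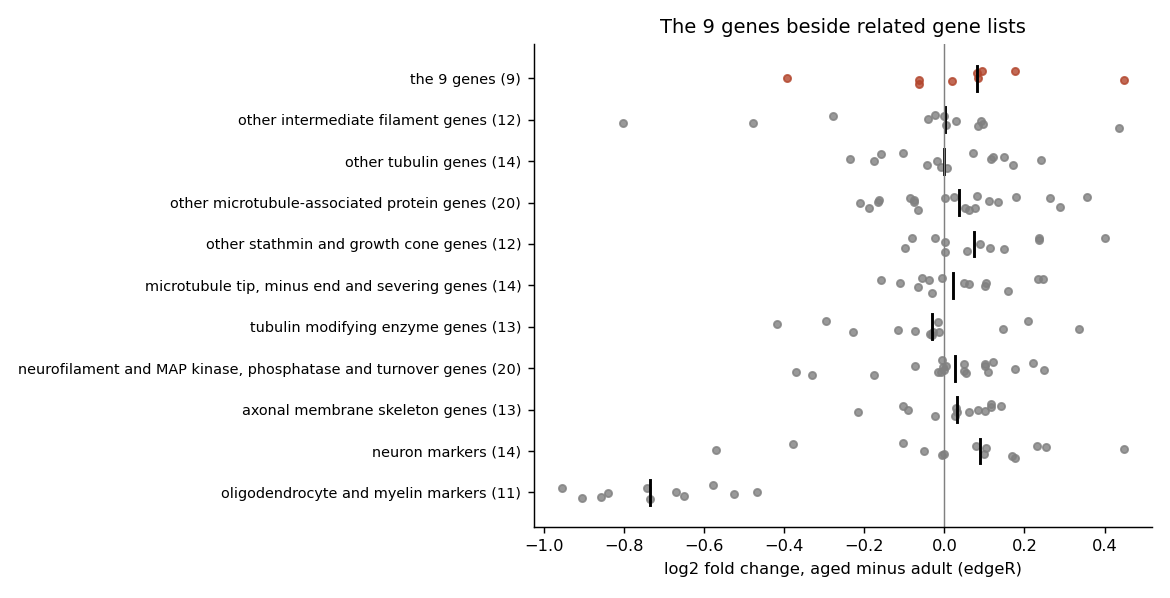
Log2 fold change, aged minus adult (horizontal axis, edgeR), of the 9 genes (red) and of tested genes in related lists, neuron markers and myelin markers (grey), 1 point per gene with the number of genes in brackets and the median as a black bar. Medians lie between -0.030 and 0.090 except that of the myelin markers (-0.74).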

How the data were processed

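RNA of 6 ventral hippocampi was measured. The authors deposited a table of raw counts per gene symbol. Their deposited FPKM table holds the same counts, scaled by a fixed length per gene and by library totals. Reads were mapped to Rnor_6.0, per the submitters' processing notes. For the aligner, the counting program and strand, the sources used here give nothing. Genes passing filterByExpr were scaled by TMM and tested, aged minus adult, with edgeR 4.0.16 in R 4.3.3 (quasi-likelihood, two-sided), with Benjamini-Hochberg adjustment over all genes tested. Standard errors and 95% intervals were derived from the F statistic and its degrees of freedom. DESeq2 1.42.0, limma 3.58.1 and other scalings, filters and left-out libraries were alternatives. Log2 CPM used a prior count of 2. Scripts were tested on simulated data. The 9 genes and all lists were chosen with earlier results of these data known. Named were the 9, the gene with the smallest p and the most abundant gene of each related list, and the nearest profiles, of which the closest is given for 7 of the 9. Some genes that this rule takes are not reported here. Other named genes were chosen as tissue or overlap checks, or after their values were seen where so stated. Symbols were matched to GRCr8 for overlaps and promoters (all 9 matched). Means are given with SD, and p-values rest on 3 rats per age. Figures were drawn with matplotlib 3.10.9.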

Additional observations from a re-analysis of the deposited data

How the results depend on the processing

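Over 19 alternatives, 0 of the 9 genes was called in any, and Map1a stayed higher (log2 fold change 0.32 to 0.61) and Tubb4a lower (-0.45 to -0.31) in aged rats. Their adjusted p ranged between 0.804 and 1 for Map1a and between 0.460 and 1 for Tubb4a. Over all genes, DESeq2 called 31, log2(FPKM + 1) called 2 (Polr2i and LOC100361898), and leaving out 1 library gave 0 to 1, the genes being Mff, Tma7 and LOC103690005 without adult replicates 1, 2 and 3 in turn. The median log2 fold change of the 9 genes was -0.079 without replicate 1 of both ages and -0.073 without aged replicate 1, against 0.081 in all 6 libraries, and 0.058 with the replicate number as a block. Small differences changed sign when a library was left out: the ranges were -0.12 to 0.25 for Nefl, -0.073 to 0.36 for Nefm, -0.23 to 0.054 for Nefh, -0.057 to 0.22 for Ina, -0.044 to 0.22 for Map1b, -0.033 to 0.12 for Map2 and -0.17 to 0.022 for Stmn2. Without replicate 1 of both ages, Nefl stood at -0.14, Nefm at -0.023, Nefh at -0.26, Ina at -0.083, Map2 at -0.019, Map1a at 0.54, Map1b at -0.079, Stmn2 at -0.045 and Tubb4a at -0.38. The cause was not tested. Deviations of libraries with the same replicate number correlated at -0.015, -0.057 and 0.087, so they shared no broad pattern. Such correlations cannot exclude an effect shared by some genes, and Alb was low in replicate 1 of both ages (16.0 and 16.9 CPM). Whether the replicate numbers pair the samples was therefore not settled. With the replicate number as a block 0 genes were called. Without adult replicate 3 the Map1b to Map1a ratio differed between ages by -0.20, against -0.39 with it. Counting error of the 9 genes was at most 2.22%, so counting alone adds little to the spread between libraries. With 3 rats per age, whether that spread came from the rats, the dissection or the library preparation was not tested.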
